A study of Mus musculus with 10 samples.

Results

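The glucocorticoid receptor (GR) sites described here are distal sites of fed mouse muscle that had no called peak of lysine-specific demethylase 1 (LSD1) in the fed state and were called for GR again after starvation. They numbered 2995 of the 14108 GR peaks of fed muscle. A GR fed peak was a member when its midpoint lay outside every promoter (1000 bp upstream to 100 bp downstream of a RefSeq transcription start site, TSS, on GRCm38), when it shared no base with an LSD1 fed peak, and when it shared at least 1 bp with a GR starved peak. The midpoint criterion alone left 10955 distal peaks. The other distal peaks were 3789 with LSD1 that were kept in starved muscle, 3279 without LSD1 that were lost, and 892 with LSD1 that were lost, where lost means only that no GR starved peak was called there. Of all GR fed peaks, 65.8% overlapped a GR starved peak. Members were thus chosen by the called peaks of GR in both states and of LSD1 in fed muscle, so values of these 3 libraries are given as a description, with no test.

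Chromatin was prepared from skeletal muscle nuclei of C57BL/6J mice, given as 10 weeks old in the labels, that were either fed or starved for 24 h. No group carried an altered allele or received another agent. ChIP-seq was made for GR, LSD1 and histone H3 mono- or dimethylated at lysine 9 (H3K9me1 and H3K9me2), beside input chromatin, with 1 library per antibody and state, which gave 10 libraries and 8 peak lists. No spread between replicates was therefore available for any difference between the states, and intervals cover counting error only. Both GR libraries shared one library code and both LSD1 libraries the other, whereas the fed and starved libraries of each H3K9 mark differed in code, so that code and starvation cannot be told apart for these marks. How deeply each library was sequenced is unknown. The starved GR list held 37783 peaks, and a longer list makes an overlap more likely. The LSD1 starved list held 66332 peaks, against 16616 in fed muscle. The study's text gives another, much smaller number for it, so the deposited list is possibly a different version, and every LSD1 starved share carries that doubt. For a check of the tissue, 10 of 12 muscle marker genes were the nearest gene of a GR fed peak, against 0 of 7 adipocyte, 2 of 7 endothelial and 1 of 7 immune, fibroblast and liver marker genes each. In bulk muscle, fewer nuclei with binding and less binding per nucleus cannot be told apart.

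GR is a hormone receptor that enters the nucleus when glucocorticoids bind it, and in muscle it is known for turning on protein breakdown and restraining insulin signalling during fasting. It can bind DNA directly as a dimer at the glucocorticoid response element (GRE), a palindrome of AGAACA and TGTTCT around a short spacer, or be held at enhancers through other factors such as AP-1. LSD1 is a demethylase of histone H3 that works in complexes with other chromatin proteins at promoters and enhancers.

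The 6 members shown here were taken by their fed fold from the 10 members that hold both arms of the GRE without a mismatch. They serve as examples of the palindrome. A choice by fed fold by itself favours a lower starved fold. The sequences are RefSeq reference sequence of GRCm38 (mm10), plus strand, 5′ to 3′, with the GRE in capitals and the rest of the peak in lower case. Zhx3, a zinc finger and homeobox gene, has its GRE in chr2:160805167-160805466, a stretch of a longer peak inside the gene's intron. The peak nearest to Akr1e1, an aldo-keto reductase gene, lies between genes at chr13:4791237-4791420. That of Plk3, a stress-induced kinase gene, is intergenic at chr4:117136174-117136420. The peak of 4930596I21Rik lies in an intron of Dennd1b at chr1:138982218-138982413. Hk2 encodes hexokinase 2, which traps glucose in muscle fibres, and its peak is intronic at chr6:82771130-82771389. The peak nearest to Dmp1, a gene of mineralised matrix, is intergenic at chr5:104236812-104236998.
Zhx3: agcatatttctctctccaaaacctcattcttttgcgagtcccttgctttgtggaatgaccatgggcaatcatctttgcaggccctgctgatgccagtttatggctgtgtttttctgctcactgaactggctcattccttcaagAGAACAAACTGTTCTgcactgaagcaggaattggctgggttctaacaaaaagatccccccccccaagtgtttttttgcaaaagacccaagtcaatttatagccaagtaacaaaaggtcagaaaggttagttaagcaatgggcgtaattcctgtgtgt
Akr1e1: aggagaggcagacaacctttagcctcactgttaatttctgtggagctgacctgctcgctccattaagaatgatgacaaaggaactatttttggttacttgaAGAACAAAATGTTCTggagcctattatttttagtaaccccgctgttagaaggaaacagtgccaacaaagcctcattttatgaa
Plk3: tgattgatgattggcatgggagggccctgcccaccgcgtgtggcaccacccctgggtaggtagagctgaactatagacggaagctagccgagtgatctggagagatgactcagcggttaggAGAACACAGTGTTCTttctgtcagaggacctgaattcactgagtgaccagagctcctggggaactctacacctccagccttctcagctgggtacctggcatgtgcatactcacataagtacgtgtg
4930596I21Rik: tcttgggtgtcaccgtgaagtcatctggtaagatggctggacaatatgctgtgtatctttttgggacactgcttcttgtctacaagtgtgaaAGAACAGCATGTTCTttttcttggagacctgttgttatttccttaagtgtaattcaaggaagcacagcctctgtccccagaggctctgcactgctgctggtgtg
Hk2: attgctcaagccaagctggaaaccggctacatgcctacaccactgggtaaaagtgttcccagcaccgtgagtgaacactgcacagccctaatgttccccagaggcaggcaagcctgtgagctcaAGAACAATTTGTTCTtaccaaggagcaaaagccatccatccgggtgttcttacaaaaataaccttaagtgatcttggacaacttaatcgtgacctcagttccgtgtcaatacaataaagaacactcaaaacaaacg
Dmp1: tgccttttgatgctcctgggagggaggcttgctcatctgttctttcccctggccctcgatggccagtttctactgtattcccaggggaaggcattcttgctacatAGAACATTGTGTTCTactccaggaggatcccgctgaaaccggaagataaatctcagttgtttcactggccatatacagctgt

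In these 6 peaks the GRE lay near the middle of the peak in all but Zhx3. Its centre was 1 bp from the midpoint at 4930596I21Rik and Hk2, 5 bp at Plk3, 16 bp at Akr1e1, 19 bp at Dmp1 and 91 bp at Zhx3. GR enrichment over input, the fold that the peak caller gave, was 9.57 in fed and 7.61 in starved muscle at Zhx3. Plk3 had 6.14 when fed and 6.91 when starved. Plk3 was the only one of the 6 with a higher starved fold. The fold went from 7.36 in fed to 2.78 in starved muscle at Akr1e1, from 5.61 to 3.32 at 4930596I21Rik, from 5.51 to 3.12 at Hk2 and from 5.05 to 2.44 at Dmp1.

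For most members the GR fold was lower in the starved list, as it was for kept GR fed peaks in general. Fed folds ran from 1.32 to 16.5 with a median of 3.53 (95% order-statistic interval 3.50 to 3.57), and starved folds ran from 1.40 to 13.2 with a median of 3.02 (2.99 to 3.05). The log2 of starved over fed fold ran from -1.79 to 2.06, with a median of -0.21 (-0.22 to -0.20). The median was -0.22 at kept sites with LSD1 and -0.19 over all 9287 kept GR fed peaks. The ratio was above 0 at 635 members (21.2%). The fed fold was at least 1.5 times the starved fold at 407 members (13.6%), and the reverse held at 50 (1.67%). Each fold is relative to the input of its own state, so the scale of the 2 lists may differ, and the part of this in the difference was not tested. Across members the 2 log2 folds had a Pearson's r of 0.60 and a Spearman's rho of 0.52. Members are sites of the same 2 libraries and not replicates.

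**Figure D1:**
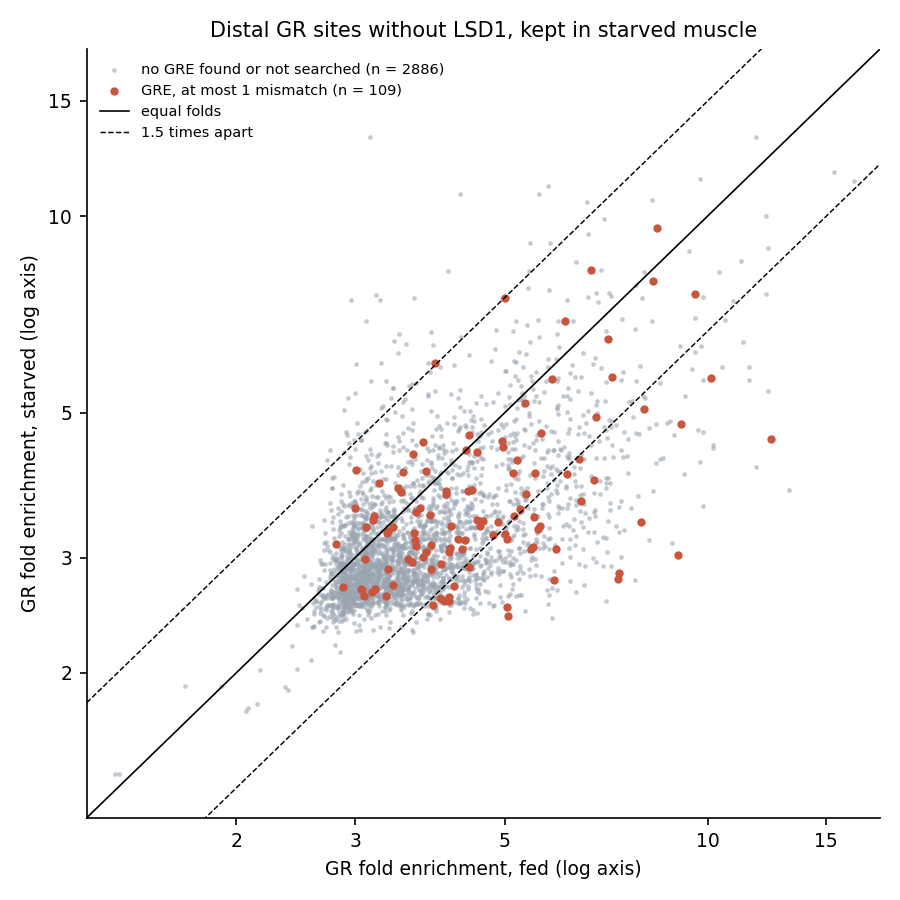
GR fold enrichment over input at the 2995 members in fed muscle (x axis) and starved muscle (y axis), both on log axes. Each point is 1 member, members with a GRE are marked, and most points lie below the line of equal folds, with 635 above it.

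Members reached a fed fold of 5 more often than all GR fed peaks and less often than kept sites with LSD1. Such a fold was reached by 498 members (16.6%), 11.1% of all GR fed peaks and 23.1% of kept sites with LSD1. It was reached by 2.90% of lost sites without LSD1 and 3.92% of those with it. The rule asks for a GR starved call, so these shares describe the choice of the members. The starved fold reached 5 at 200 members (6.68%) and both folds did at 139 (4.64%). A q-value of at most 0.01 was reached by 2314 members in fed muscle (77.3%), 70.4% of all GR fed peaks and 86.2% of kept sites with LSD1. The GR starved peak reached it at 2040 members (68.1%). The median member was 239 bp long, and its starved peak 339 bp. The starved peak was the longer one at 1910 members (63.8%). Median fed folds of the other distal classes were 3.74 for sites with LSD1 that were kept, 3.16 for those without LSD1 that were lost and 3.19 for those with LSD1 that were lost. The strongest peaks of these classes had 18 at 4933431G14Rik, 8.53 at Gm16555 and 9.46 at Glb1l2. Peaks with LSD1 that were kept had a median length of 366 bp. Longer peaks overlap more easily with any list.

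The 6 strongest members in fed muscle differed in how much of their fold was seen in starved muscle. The peak nearest to 4930428G15Rik, at chr9:115333040-115333397, had the highest fed fold, 16.5, and a starved fold of 11.3. Next was a site nearest to Zfp36, which encodes an RNA-binding protein that destabilises inflammatory transcripts, at chr7:28376372-28376703, with 15.4 in fed and 11.7 in starved muscle. These 2 sites were among the strongest in both states. Others were high mainly in fed muscle, but all 6 were picked by fed fold, which by itself favours a lower starved fold. The site nearest to Bmp8a, a growth factor gene, at chr4:123333532-123333835, went from 13.2 in fed to 3.81 in starved muscle. That nearest to Mir3970, at chr19:33080020-33080270, held a GRE with 1 mismatch and went from 12.4 to 4.56. The site at 3100003L05Rik (chr7:124907299-124907661) had 12.3 and 5.40. An intron of Ccnd3, the gene of a cyclin that is also expressed in differentiating muscle, had 12.3 in fed and 8.94 in starved muscle at chr17:47508021-47508278. At Ccnd3 the site also overlapped an LSD1 starved peak of 3.19 fold and an H3K9me2 fed peak of 3.73 fold.

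A GRE was more frequent at the members than in flanking sequence and than at distal sites with LSD1 that were kept. The motif searched was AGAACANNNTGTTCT with at most 1 mismatch in its 12 fixed bases, which reads the same on both strands. It was in 109 of 2992 members with sequence (3.64%, exact 95% binomial interval 3.00 to 4.38), in 0.201% of equally long stretches 5 kb away, and in 2.17% of all GR fed peaks. The share was 2.06% (1.63 to 2.57) at distal sites with LSD1 that were kept, and that interval did not overlap the one of the members. It was 3.02% (2.46 to 3.66) at sites without LSD1 that were lost, which overlapped it, and 0.575% (0.187 to 1.34) at sites with LSD1 that were lost. GR fed peaks at promoters had a GRE in 0.444%. Without a mismatch there were 10 members (0.334%), and with at most 2 mismatches 463 (15.5%, against 2.94% of the flanks). A match is a description of letters and says nothing of binding to them.

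The intervals of the members and of the kept sites with LSD1 lay apart between fed folds of 3 and 5 and overlapped below and above that range. Under a fold of 3 the GRE share was 0.372% (0.0451 to 1.34) at the members and 0.605% (0.125 to 1.76) at the kept sites with LSD1. Between a fed fold of 3 and 4 the GRE share was 2.62% (1.86 to 3.58) at the members and 0.468% (0.202 to 0.920) at the kept sites with LSD1. Between 4 and 5 it was 5.72% (3.86 to 8.11) against 1.84% (0.983 to 3.12). From a fold of 5 to 7 the shares were 7.14% (4.76 to 10.2) and 3.84% (2.36 to 5.87), with overlapping intervals. At a fold of 7 or more they were 10.9% (5.95 to 18) and 9.74% (6.84 to 13.3), so a difference was not detectable there. Lost sites without LSD1 had 3.26%, 6.34% and 13.8% in the 3 bands from a fold of 3 to 7. By peak length, members under 200 bp had a GRE in 3.05% (2.12 to 4.24) and kept sites with LSD1 in 0.351% (0.0425 to 1.26), whereas from 500 bp upwards the shares were 4.11% and 3.62%.

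**Figure D2:**
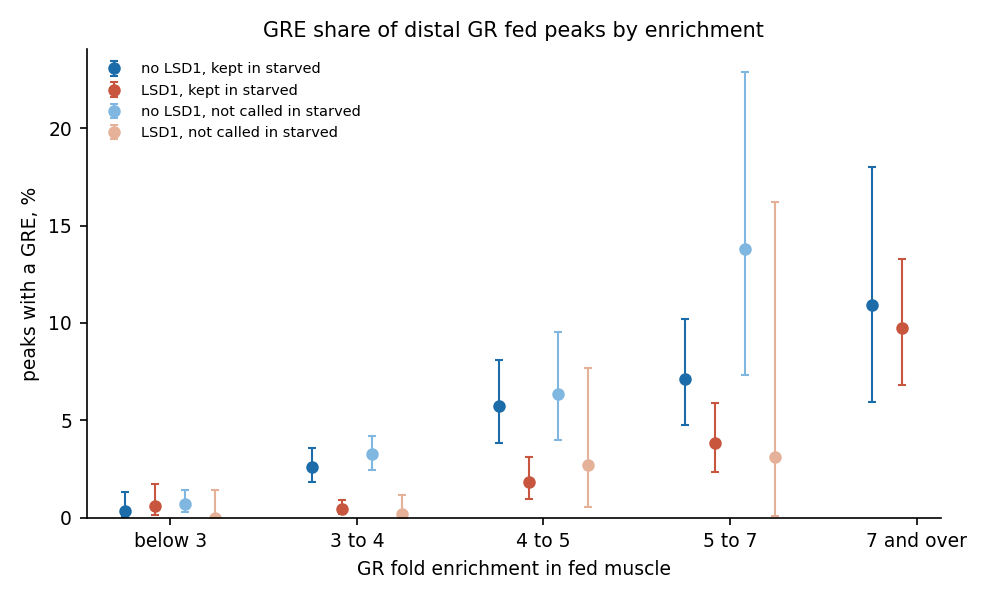
Share of peaks with a GRE of at most 1 mismatch (y axis, percent) by band of GR fed fold (x axis) in the distal classes. Points are shares, bars are exact 95% binomial intervals, and classes with under 30 peaks in a band are left out. The share of the members rises from 0.372% under a fold of 3 to 10.9% at 7 or more, and the gap to the kept sites with LSD1 is widest, relative to its bars, between folds of 3 and 5.

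The GREs of the members lay near the peak midpoint and most differed from the palindrome at the outer or the third base of an arm. The median distance from the midpoint was 27 bp, 66 of 109 GREs (60.6%) lay within 50 bp and 84 (77.1%) within 100 bp. The 99 GREs with 1 mismatch had it at position 3 in 46 cases (46.5%) and at position 1 in 30 (30.3%), with positions counted from 1 at the 5′ end of the arm AGAACA and the other arm read on its own strand. Position 6 had 10, position 4 had 7, position 2 had 4 and position 5 had 2. The commonest changes, palindrome base first, were A3T with 18, A1G with 17 and A3C with 16. The 10 GREs without a mismatch had 9 different spacers.

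Members with a GRE had higher fed folds than the others and less often overlapped an LSD1 starved peak. Their median fed fold was 4.38 (4.10 to 4.89) against 3.51 at members without one, and their median starved fold was 3.40 against 3.00. The median log2 of starved over fed fold was -0.32 with a GRE and -0.20 without. An LSD1 starved peak overlapped 5 of 109 members with a GRE (4.59%, 1.51 to 10.4) and 12.1% (10.9 to 13.4) of those without, and these intervals did not overlap. Among all members that share was 16.3% under a fed fold of 3 and 6.67% at 7 or more. The part of the fed fold in the difference was not tested. The nearest gene had LSD1 fed at a promoter for 27.5% (19.4 to 36.9) of members with a GRE and 39.5% (37.8 to 41.4) of the others.

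The GRE share also varied with the distance to the nearest LSD1 fed peak, which the rule limits only at 0 bp. The median gap was 10104 bp, 405 members lay within 1 kb and 1489 (49.7%) within 10 kb. Within 1 kb, 2 of 405 members held a GRE (0.494%, 0.0599 to 1.77). From 1 to 10 kb it was 29 of 1084 (2.68%, 1.80 to 3.82), from 10 to 100 kb 59 of 1242 (4.75%, 3.64 to 6.09), and beyond 100 kb 19 of 261 (7.28%, 4.44 to 11.1). The first interval overlapped none of the other 3. Median fed folds of the same bands were 3.22, 3.51, 3.64 and 3.90, and median lengths 269, 242, 230 and 225 bp. Their part in the GRE shares was not tested. Over the same bands, the share of members with an LSD1 starved peak went from 18.5% to 13.0%, 9.66% and 7.60%, and the share whose nearest gene had LSD1 fed at a promoter from 49.4% to 49.9%, 32.9% and 7.98%. The fall of this last share is partly fixed by the bands, since LSD1 at a nearby promoter is itself an LSD1 fed peak near the member.

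Most of the other motifs searched were also more frequent at the members than 5 kb away, but several were no more frequent than at all GR fed peaks. Both strands were searched, without a mismatch, and AGAACA lies within the GRE. The arm AGAACA was in 35.6% of members, 23.7% of flanks and 30.3% of all GR fed peaks, and the E-box CAGCTG, which myogenic factors such as MyoD bind, in 27.9%, 14.8% and 28.9%. MEF2, the motif of a family of muscle transcription factors, was in 6.48%, 4.35% and 6.98%. TCAGGTTNC, bound by sine oculis homeobox factors of myogenesis, was in 2.47%, 1.27% and 2.83%. TGANTCA of AP-1 was in 12.7%, 8.46% and 10.5%, and GTAAACA of the FoxO factors, which drive atrophy genes in fasting, in 6.55%, 3.93% and 5.32%. TTGCGCAA of C/EBP was in 0.267% of members (0.116 to 0.526) and 0.0334% of flanks (0.00405 to 0.121), with overlapping intervals. GCGCATGCGC of NRF1 was in 1 member and 1 flank. Members were richer in G and C than their flanks, with a median of 51.5% against 46.7%. They had less repeat-masked sequence, with a median of 4.68% against 15.5%. The part of base composition and repeats in the motif shares was not tested.

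Because the classes differ in length, shares were also taken in the central 200 bp of each peak, a window that was chosen after the data were seen for every motif but the GRE. The GRE was then in 2.67% (2.13 to 3.32) of members and 0.978% (0.690 to 1.35) of kept sites with LSD1. The E-box was in 22.0% (20.5 to 23.5) of members, 25.6% (24.2 to 27.0) of kept sites with LSD1 and 17.6% (16.3 to 18.9) of lost sites without LSD1. AP-1 was in 9.79% (8.75 to 10.9), 8.09% (7.24 to 9.01) and 6.16% (5.36 to 7.04) of the 3 classes. The FoxO motif was in 4.48% (3.77 to 5.28), 3.75% (3.17 to 4.41) and 2.75% (2.21 to 3.36). The members thus stood above the sites with LSD1 for the GRE and below them for the E-box, with intervals that did not overlap, whereas the AP-1 and FoxO intervals of these 2 classes did.

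The motifs differed between members that leaned to fed and members that leaned to starved muscle. Members were put into 5 bands of the log2 of starved over fed fold, with edges at -0.6, -0.3, 0 and 0.3, which use the folds that chose the members but not the motifs. From the band lowest in starved muscle to the highest, AP-1 was in 8.55% (5.96 to 11.8), 10.7%, 12.1%, 16.6% and 25% (18.3 to 32.8). FoxO was in 3.89% (2.19 to 6.33), 5.91%, 6.11%, 8.01% and 15.5% (10.1 to 22.4). The GRE was in 7.77% (5.30 to 10.9), 3.71%, 2.57%, 3.49% and 2.03% (0.420 to 5.81), and its first and last intervals overlapped. Those of AP-1 and of FoxO did not overlap. The E-box share was 22.3% in the first band and 28.3% to 29.4% in the others. Median peak lengths of the bands lay between 225 and 251 bp, but their folds differed. Median fed folds were 5.48, 3.93, 3.18, 3.15 and 3.32, and median starved folds 3.06, 2.90, 2.87, 3.46 and 4.78. The GRE share also rose with the fed fold, and the part of either fold in these motif shares was not tested. The share with an LSD1 starved peak went from 4.66% in the first band to 17.6% in the last. Along these bands the same direction held at the kept sites with LSD1, where AP-1 went from 10.9% to 30.6% (22.9 to 39.1) and FoxO from 5.76% to 14.2% (8.76 to 21.3), so it was not particular to the members.

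**Figure D3:**
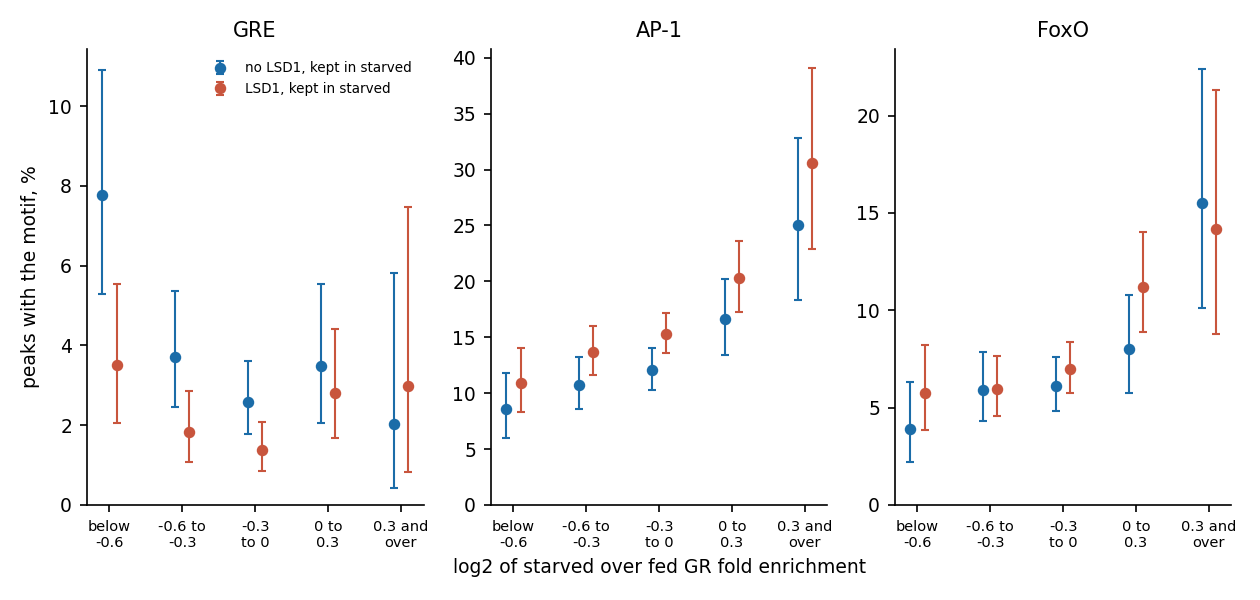
Share of members and of kept sites with LSD1 that hold a GRE, an AP-1 or a FoxO motif (y axis, percent, 1 panel each) by band of the log2 of starved over fed GR fold (x axis). Points are shares and bars exact 95% binomial intervals. At the members AP-1 goes from 8.55% to 25% and FoxO from 3.89% to 15.5%. The GRE share is highest, 7.77%, in the band lowest in starved muscle, which also has the highest median fed fold, 5.48.

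For these 2 motifs, 4 members with a higher fold in starved muscle are shown, chosen after their values were seen. They are reference sequence of GRCm38, plus strand, 5′ to 3′, and the capitals mark the AP-1 match in the first 2 and the FoxO match, on the minus strand, in the last 2. The site nearest to Tob2, an antiproliferative gene, is intergenic at chr15:81838703-81838874, with 3.22 in fed and 7.56 in starved muscle. The Tob2 member is 172 bp long but its starved peak 1717 bp, so these values may not give the change of that site alone. The site in an intron of Eif4ebp1, which encodes an inhibitor of translation that mTORC1 phosphorylates, is at chr8:27265671-27265799, with 4.12 and 8.24. The site nearest to Gm13421 is at chr2:27599140-27599307, with 3.48 and 6.18, and a site nearest to Mir29b-1 at chr6:31113630-31113867, with 3.42 and 5.46.
Tob2: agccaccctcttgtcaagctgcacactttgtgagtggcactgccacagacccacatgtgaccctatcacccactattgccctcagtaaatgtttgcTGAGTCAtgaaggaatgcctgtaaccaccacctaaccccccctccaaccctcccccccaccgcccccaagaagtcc
Eif4ebp1: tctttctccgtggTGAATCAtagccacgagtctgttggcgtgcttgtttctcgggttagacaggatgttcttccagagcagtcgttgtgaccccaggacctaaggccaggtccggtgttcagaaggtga
Gm13421: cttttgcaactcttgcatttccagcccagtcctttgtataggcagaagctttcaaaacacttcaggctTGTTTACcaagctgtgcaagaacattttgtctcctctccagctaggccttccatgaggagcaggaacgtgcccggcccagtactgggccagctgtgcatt
Mir29b-1: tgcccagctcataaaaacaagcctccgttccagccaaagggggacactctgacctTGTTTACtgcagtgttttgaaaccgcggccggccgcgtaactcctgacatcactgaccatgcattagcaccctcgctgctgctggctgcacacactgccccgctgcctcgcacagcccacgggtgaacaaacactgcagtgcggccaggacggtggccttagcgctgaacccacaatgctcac

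Of the 50 members with a starved fold at least 1.5 times the fed fold, 19 held an AP-1 motif (38.0%, 24.7 to 52.8) and 9 a FoxO motif (18%, 8.58 to 31.4). At kept sites with LSD1, where 18 peaks passed the same limit, AP-1 was in 2 (11.1%, 1.38 to 34.7), close to the 11% of those at least 1.5 times higher in fed muscle, and FoxO in 3 (16.7%, 3.58 to 41.4). Of the members with a fed fold at least 1.5 times the starved one, 8.37% (5.87 to 11.5) held AP-1, 3.69% (2.08 to 6.02) FoxO and 7.39% (5.04 to 10.4) a GRE. The 139 members with a fold of at least 5 in both states held AP-1 in 23.0%, FoxO in 13.7% and a GRE in 7.91%.

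Members with a higher fold in starved muscle lay near genes of different kinds, and those named here were chosen after their values were seen. A site 7.56 kb upstream of Trim63, the gene of the atrophy ubiquitin ligase MuRF1, had 3.27 in fed and 7.44 in starved muscle and overlapped an LSD1 starved peak of 4.14 fold. A site in an intron of Pfkfb3, whose enzyme makes an activator of glycolysis, had 4.29 and 10.8. A site 48.6 kb downstream of Kcnj2, a potassium channel gene, had 3.67 and 7.50. The site nearest to Myoz2, a Z-disc gene, lay in an intron of Synpo2 and had 3.12 and 6.92. A site in an intron of Slc39a14, a zinc transporter gene, had 5.79 and 11.1. A site nearest to Txnip, which restrains glucose uptake, had 3.28 and 5.95. The Txnip member is 273 bp long but its starved peak 2348 bp, and at Pfkfb3 the lengths are 206 and 849 bp. Such starved folds may not be those of the sites alone. The highest log2 value, 2.06 at Alpk2, a kinase gene, came from a weak fed peak of 3.16 that shares a 1621 bp starved peak of 13.2 with a stronger member of 11.8, so it does not give the change of that site alone.

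LSD1 in starved muscle, which the rule did not use, was called at a minority of members. An LSD1 starved peak overlapped 356 of 2995 (11.9%, 10.7 to 13.1), against 21.4% of all GR fed peaks. The latter include promoter peaks, which the rule leaves out and of which 41.2% overlapped an LSD1 starved peak. The share was 29.0% (27.6 to 30.5) at kept sites with LSD1, 3.87% (3.24 to 4.59) at lost sites without LSD1 and 16% (13.7 to 18.6) at lost sites with LSD1. None of these intervals overlapped that of the members. The LSD1 starved folds there ran from 1.44 to 4.99 with a median of 3.48, and only 54 of the 356 (15.2%) had a q-value of at most 0.01, so most of these calls were weak.

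Both H3K9 marks were called at few members. The H3K9me2 list held 171402 peaks in fed and 6624 in starved muscle, and the H3K9me1 list 14178 and 38023. Shares therefore follow the list lengths and are not to be compared between the states. H3K9me2 fed peaks overlapped 304 members (10.2%, 9.09 to 11.3), against 16.5% of all GR fed peaks, 15% (13.9 to 16.2) of kept sites with LSD1 and 7.78% (6.88 to 8.75) of lost sites without LSD1. H3K9me1 fed peaks overlapped 23 members (0.768%, 0.487 to 1.15), against 2.27% of all GR fed peaks and 2.59% of kept sites with LSD1. In starved muscle H3K9me2 overlapped 14 members (0.467%, 0.256 to 0.783), against 0.766% of all GR fed peaks. H3K9me1 starved overlapped 51 (1.70%, 1.27 to 2.23), against 2.80%. At equal peak length the H3K9me2 fed shares of the members and of kept sites with LSD1 were closer, 7.09% (5.65 to 8.75) against 8.93% (6.72 to 11.6) under 200 bp, 8.99% (7.11 to 11.2) against 9.78% (7.86 to 12) from 200 to 300 bp, and 13.4% (10.9 to 16.2) against 14.6% (12.6 to 16.7) from 300 to 500 bp. From 500 bp upwards the shares were 15.6% (12.2 to 19.6) and 21.9% (19.6 to 24.3). The intervals overlapped in the 3 bands under 500 bp and met at 19.6% in the last. The members were below all GR fed peaks for each of the 4 lists, and the interval reached the background share only for H3K9me2 starved. All GR fed peaks include promoter peaks, which the rule leaves out. Of these promoter peaks 33.3% overlapped H3K9me2 fed, 3.43% H3K9me1 fed, 3.36% H3K9me1 starved and 0.0634% H3K9me2 starved. Their part in the lower shares of the members was not tested.

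**Figure D4:**
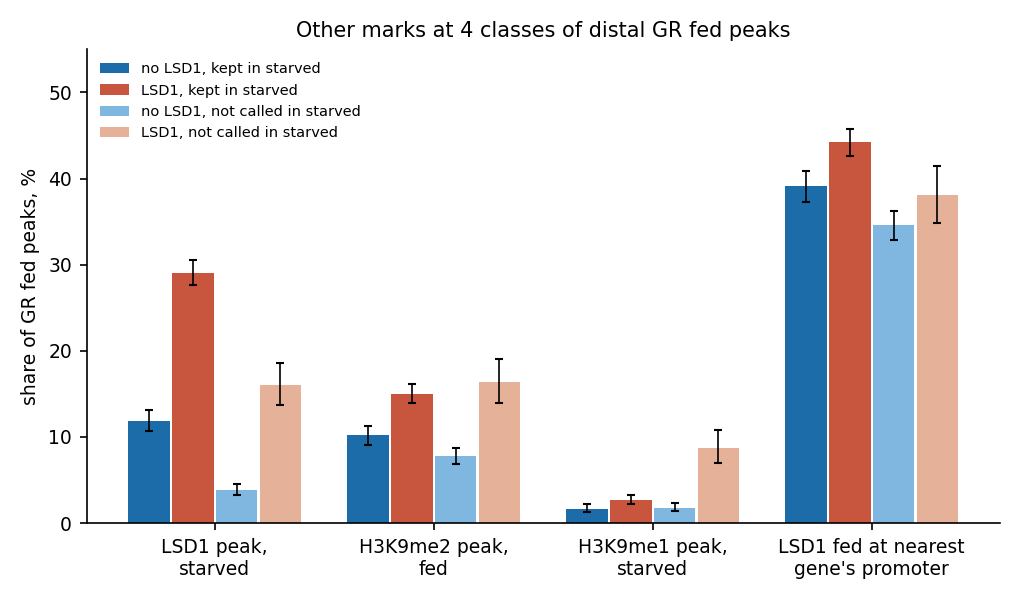
Share of peaks (y axis, percent) in the 4 distal classes that overlap an LSD1 starved, H3K9me2 fed or H3K9me1 starved peak, or whose nearest gene has LSD1 fed at a promoter (x axis), with exact 95% binomial intervals as error bars. The members lie at 11.9% for LSD1 starved and 10.2% for H3K9me2 fed, below the kept sites with LSD1 at 29.0% and 15%.

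Most members lay within genes, and they were farther from a TSS than GR fed peaks as a whole, which the rule brings about by leaving out promoters. The midpoint was in an intron at 1735 members (57.9%), between genes at 1051 (35.1%, 33.4 to 36.8) and in an exon at 209 (6.98%). The intergenic share of the other distal classes was 37.2%, 36.2% and 40.0%. The median distance to the nearest TSS was 17000 bp, with 1060 members (35.4%) within 10 kb, 1936 (64.7%) within 30 kb and 2751 (91.9%) within 100 kb. Of all GR fed peaks, 49.1% lay within 10 kb, 70.9% within 30 kb and 92% within 100 kb. Neighbouring members had a median gap of 188046 bp, and 32 gaps were within 1 kb. On the X chromosome 33 of 98 GR fed peaks were members (33.7%), against 18.7% to 23.7% on the autosomes.

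The genes nearest to members often had LSD1 at their own promoter, although the distal site itself had none. LSD1 fed was at a promoter of the nearest gene for 1170 of 2994 members (39.1%, 37.3 to 40.9), against 22.4% of all annotated genes. Shares of peaks count a gene once for each of its peaks, whereas shares of genes count it once, so the units differ. The share was 44.2% (42.6 to 45.8) for kept sites with LSD1 and 34.6% (32.9 to 36.2) for lost sites without LSD1, and neither interval overlapped that of the members. With stricter peaks or a stricter overlap the intervals of the members and of kept sites with LSD1 did overlap. Over all GR fed peaks, promoter peaks included, the share was 45.9%, above that of the members. GR fed was at a promoter of the nearest gene for 795 members (26.6%) and both proteins for 593 (19.8%), against 13.4% and 9.34% of all genes, and 41.1% and 29.6% over all GR fed peaks. In the distance bands above, the LSD1 share of the members was highest within 10 kb of an LSD1 fed peak. That is partly fixed, since the promoter peak counts as an LSD1 fed peak, and its part was not tested.

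Members were spread over 2247 genes on the autosomes and X, and 2248 of 26180 annotated genes (8.59%) were the nearest gene of a member. A single member was nearest to 1759 genes, 328 genes had 2, 160 had at least 3 and 23 had at least 5. Zbtb16, a zinc finger transcription factor gene that glucocorticoids induce, had the most, 11 of its 26 GR fed peaks. All 11 lay in its introns, 9.44 to 102 kb from the TSS. Their fed folds ran from 3.00 to 7.47 and their starved folds from 2.50 to 6.96. At Zbtb16, 2 of the 11 were higher in starved muscle, one at 64.1 kb with 5.08 and 5.29, and one at 35.0 kb with 3.00 and 3.66 that overlapped an LSD1 starved peak of 3.34 fold. None of the 11 held a GRE, and the promoter of Zbtb16 had LSD1 fed. Of all members, 3.64% held a GRE and 21.2% were higher in starved muscle.

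**Figure D5:**
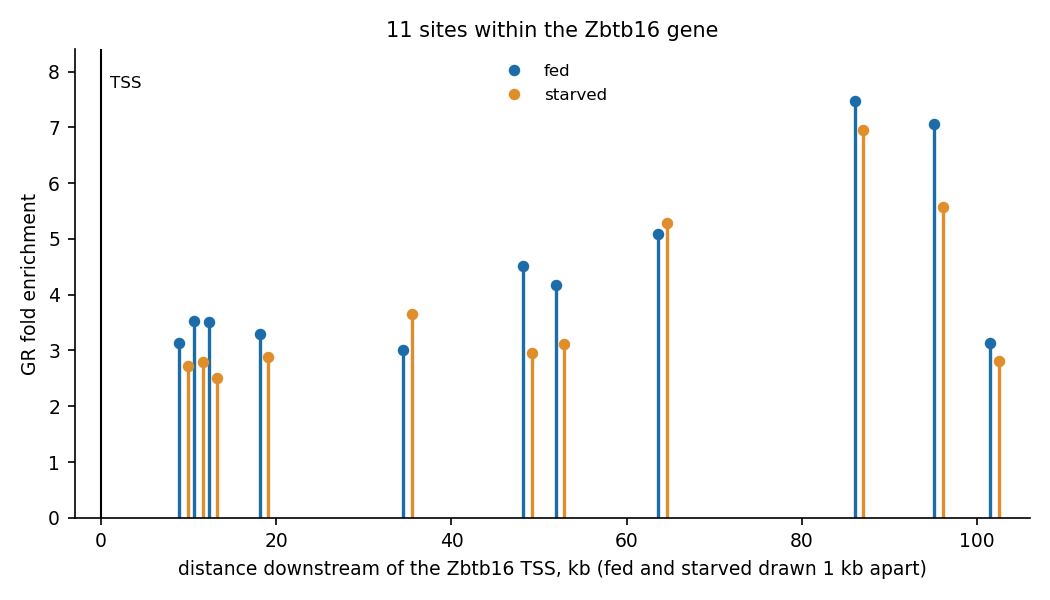
GR fold enrichment over input (y axis) of the 11 members nearest to Zbtb16 by distance from its TSS in kb (x axis), in fed and starved muscle, drawn side by side 1 kb apart, with 1 library each and hence no error bars. Fed folds lie between 3.00 and 7.47, and the starved value is above the fed one at 2 of the 11.

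Cd180, an immune surface receptor gene, was the nearest gene of 8 members, 68.0 to 461 kb upstream, so these sites lay far from the gene they are listed under. Their fed folds ran from 2.86 to 7.89, and 1 of them, 440 kb away, held a GRE with 1 mismatch and had 6.71 in fed and 8.26 in starved muscle. Trib1, a pseudokinase gene, had 7 members, 3 of them in introns of Nsmce2. One of the Trib1 sites, 98.8 kb upstream, went from 3.06 in fed to 4.54 in starved muscle. Ank3, the gene of a membrane scaffold, also had 7, with fed folds of 3.01 to 3.78. Gm14321 was nearest to 8, with fed folds of 2.94 to 7.59. Tsc22d3, the glucocorticoid-induced leucine zipper gene, had 6.

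Genes that GR is known to control often had a member near them. The lists of genes were chosen with earlier results of these data known, and each count is to be read against 8.59% of all genes. In each list described, between 66.7% and 96.2% of the genes had a GR fed peak of some class. These counts therefore do not set the members apart from GR fed peaks of other classes. Of 26 classic GR targets, 15 had a member (57.7%), and 25 of the 26 had a GR fed peak of some class. A site 227 kb upstream of Pik3r1, the regulatory subunit of PI 3-kinase, had 12.2 in fed and 7.60 in starved muscle. At Tsc22d3 the highest site had 6.77 and 5.93. A site downstream of Mt1, a metallothionein gene, had 5.84 and 4.11. Fkbp5, which encodes a cochaperone that restrains GR, had 1 member, an intronic site with 3.97 in fed and 2.84 in starved muscle that overlapped an LSD1 starved peak of 3.78 fold. None of the 44 members near these genes held a GRE, and 10 of them were higher in starved muscle. Over all members these shares were 3.64% and 21.2%.

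Circadian clock genes had a member in 8 of 19 cases (42.1%). At Nfil3, a repressor that acts opposite to Dbp, an intronic site had 5.49 in fed and 3.01 in starved muscle. Per2, a core repressor of the clock, had 3.53 and 2.81. An intronic site of Dbp had 3.39 and 3.25 and overlapped an LSD1 starved peak of 4.12 fold. Upstream of Cry2, another repressor, the fold was higher in starved muscle, 4.90 against 3.33. Of the 12 members near clock genes, 5 were higher in starved muscle, against 21.2% of all members.

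Among genes of muscle atrophy and ubiquitin ligases 10 of 21 had a member (47.6%), and among autophagy genes 8 of 20 (40.0%). Fbxo32, Ctsl, Gbe1 and Nr3c1 are named after their values were seen. Beside Trim63, a site upstream of Fbxo32, the gene of the atrophy ubiquitin ligase atrogin-1, held a GRE with 1 mismatch and had 3.00 in fed and 3.57 in starved muscle. A site in an intron of Nedd4, a ubiquitin ligase gene, also held a GRE with 1 mismatch and had 5.04 and 2.52. Fbxo31 had 4.84 in fed and 6.25 in starved muscle. Atrophy genes thus held sites that leaned either way, as members in general did. Of their 17 members, 1 was at least 1.5 times higher in starved and 3 were at least 1.5 times higher in fed muscle. The same limits were passed by 1.67% and 13.6% of all members. A higher starved fold was found at 4 of the 17, against 21.2% of all members. The median log2 of starved over fed fold was -0.22 for this list and -0.21 for all members. Optn, an autophagy receptor gene, had 8.60 and 4.27. Tfeb, which encodes a regulator of lysosomal genes, had 4.14 and 2.95. A site nearest to Ctsl, the gene of a lysosomal protease, held a GRE with 1 mismatch and had 2.88 and 2.71.

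Insulin, IGF1 and mTORC1 signalling had a member at 17 of 30 genes (56.7%). Beside Pik3r1 and Eif4ebp1, a site of Irs1, the insulin receptor substrate, had 5.69 in fed and 3.63 in starved muscle. Sesn1, an inhibitor of mTORC1, had 5.99 and 4.31, and Akt2, the insulin-responsive kinase, 4.79 and 4.52. Of the 23 members of this list, 4 were higher in starved muscle, against 21.2% of all members.

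Glycolysis and glycogen genes had a member in 10 of 18 cases (55.6%), and genes of fuel use in 5 of 29 (17.2%). Sites upstream of Phka1, a subunit of phosphorylase kinase, and of Pygm, muscle glycogen phosphorylase, had 5.90 and 5.25 in fed and 4.39 and 3.41 in starved muscle. A site in Gbe1, the glycogen branching enzyme, held a GRE with 1 mismatch and had 2.81 in fed and 3.15 in starved muscle. Ppargc1a, a coactivator of mitochondrial genes, had 4.69 and 3.31. Of amino acid genes, 8 of 20 had a member (40.0%). Gpt2, an alanine aminotransferase, had 7.65 and 5.20, and Ampd3, an AMP deaminase, 5.16 and 6.01 at the strongest of its 3 members in fed muscle. Another Ampd3 member was at least 1.5 times higher in fed muscle.

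Sarcomere and fibre type genes had a member in 10 of 36 cases (27.8%), excitation-contraction coupling genes in 10 of 20 and myogenic transcription factors in 8 of 24 (33.3%). Ttn, the gene of the elastic filament titin, had 5 members, the highest with 8.49 in fed and 5.56 in starved muscle. Myot, a Z-disc gene, had 8.05 and 8.21. The highest site of Atp2a1, the calcium pump of fast fibres, had 6.38 in fed and 8.51 in starved muscle, and the site overlapped an LSD1 starved peak of 3.49 fold. An exonic site of Cacng1, a calcium channel subunit, held a GRE with 1 mismatch and had 4.16 and 3.36. Upstream of Myf6, a myogenic factor of mature fibres, the values were close, 6.53 and 6.17. A site upstream of Tead1, which binds MCAT elements, had 5.55 and 4.39. Another of the 6 Tead1 members, in an intron, had 2.73 in fed and 4.23 in starved muscle. For GR and its coregulators 5 of 25 genes had a member (20.0%). Ncoa3, a coactivator, had 5.57 and 3.21, and Nr3c1, the gene of GR itself, 3.08 and 3.39 at an intronic site.

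Sites just inside and just outside the limits of the rule had low folds. Irgm1 had a member 2 bp outside a promoter window, with a fed fold of 3.11 and a starved fold of 3.12, and Pole2 a peak 3 bp inside one, with 2.74 and 2.45. The member of Tns1 shared 1 bp with its GR starved peak and had 2.87 and 2.68. A peak at 2010106C02Rik of 3.21 fold touched a GR starved peak without sharing a base. A peak at Itgb5 of 3.05 fold shared 1 bp with an LSD1 fed peak and was left out.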

How the data were processed

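The authors sequenced 10 libraries of fed and 24 h starved skeletal muscle and deposited 8 peak lists, which were grouped by the labels. They aligned single-end reads to mm10 (GRCm38) with Bowtie (peak names carry Bowtie2), kept uniquely mapped reads, and called broad peaks per library with MACS2 against input. The stated blacklist was made for the human genome. The submitters' processing notes name bcl2fastq 2.20.0.422. Each deposited list gave the ratio (fold enrichment) of signal to input, and −log10 of a p-value and of a q-value. The deposited score was not used. The highest q-value of the lists lay between 0.0925 and 0.0998, so the deposited lists are less strict than the filter the study states. Sequencing depth is unknown, since reads were not used here.

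Peaks were compared by overlap of at least 1 bp and assigned to the nearest TSS of 45756 RefSeq transcripts of 26180 genes. Where several GR starved peaks overlapped a member, the highest fold was used. Shares are given with exact Clopper-Pearson 95% intervals and medians with exact order-statistic 95% intervals. These cover counting error only, and neighbouring peaks are not independent. With 1 library per group no test between states was made and no p-value computed. Motifs were searched on both strands in whole peaks of the main chromosomes and in stretches of the same length 5 kb to either side. The overlap and motif steps were tested on simulated data. Python 3.11.15, pandas 2.3.3, numpy 2.4.6, scipy 1.17.1, pysam 0.24.0 and matplotlib 3.10.9 were used.

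Peaks and genes are named by a fixed rule, on autosomes or X: the 6 members with the highest fed fold, the 3 with the highest starved fold, the 6 strongest with a GRE without mismatch (outside exons and chromosome 18), the 5 genes with the most members, up to 4 genes per list with the strongest members, and peaks at the limits of the rule and the strongest of the other classes. Names outside it are said to be chosen after their values were seen. A few items that the rule names are not reported here. The members and lists were chosen with earlier results of these data known.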

Additional observations from a re-analysis of the deposited data

How the results depend on the processing

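Of 77 values under other settings, over 7 results, 54 stayed close to the value as reported (within its 95% interval, or within 1.5 times for the number of members), 23 moved further and 0 changed sign. Stricter GR fed peaks gave fewer members, 1068 at a q-value of 1e-05 or less and 498 at a fold of at least 5. In these 2 settings the median log2 of starved over fed fold was -0.49 and -0.61, the GRE share 6.37% and 8.05%, the LSD1 starved share 9.64% and 7.23%, and the intergenic share 37.7% and 39.4%. A choice by the fed q-value or fed fold lowers the fold ratio by construction, since the fed fold is its denominator. With the GR starved list shortened to the length of the fed list, the median log2 was -0.16 and the GRE share 4.39%. The GRE share was 0.334% without a mismatch, 15.5% with at most 2, and 2.67% in the central 200 bp.

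The LSD1 starved share was 15.6% with a q-value of at most 0.01 in the 3 lists that choose the members, 10.5% when 50% of the shorter peak had to be shared, 1.80% with LSD1 starved peaks of a q-value of at most 0.01, and 18.2% with peaks extended by 500 bp. The H3K9me2 fed share was 8.08% at that overlap and 23.6% with the extension. The intergenic share was 37.3% with promoters to 1 kb downstream, and the share of nearest genes with LSD1 at a promoter 40.9% for a TSS within 30 kb. Fewer or wider peaks lower or raise these shares by construction, and a choice of peaks by fed or starved fold shifts the fold ratio by construction. The cause of the other moves was not tested.

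The GRE share of the members was above that of kept sites with LSD1 in all settings in which both were compared, but the intervals overlapped at a fold of at least 5 (8.05% against 6.21%) and without a mismatch (0.334% against 0.185%). The LSD1 starved share and the H3K9me2 fed share were lower at the members in all such settings. The intervals for H3K9me2 overlapped at a fold of at least 5 (11.2% against 14%) and with the extension (23.6% against 26.5%). The share of nearest genes with LSD1 at a promoter was also lower at the members, but its intervals overlapped at a q-value of at most 0.01 (40.8% against 44.1%), at 1e-05 (38.7% against 41.8%), at a fold of at least 5 (37.4% against 41.3%) and with 50% of the shorter peak shared (39.9% against 43.3%). The median log2 of starved over fed fold was lower at the members at a fed q-value of at most 1e-05 (-0.49 against -0.40). The same held at a fold of at least 5 (-0.61 against -0.48). It was higher with 50% of the shorter peak shared (-0.20 against -0.23) and with promoters to 1 kb downstream (-0.21 against -0.24). The intervals of this median did not overlap in these settings and overlapped in the others.

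No paired analysis was possible because each group has 1 library. For the same reason no replicate was left out.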
